A study of Mus musculus with 4 samples.

Results

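The 7 Dlg and Magi genes of the mouse, Dlg1, Dlg2, Dlg3, Dlg4, Magi1, Magi2 and Magi3, were followed through the open chromatin of cervical spinal motor neurons with and without the homeodomain transcription factor Hoxa5. They held 431 of the 199576 accessible regions found in the series. A region is the union of overlapping ATAC-seq peaks of any library; it was given to the protein-coding gene whose body (the annotated span from the outermost start to the outermost end) holds its midpoint, or otherwise to the nearest body within 100 kb. ATAC-seq maps open chromatin through the cuts of the transposase Tn5. There were 4 libraries of motor neurons sorted from embryos at day 12.5 by the fluorescence of a ChAT::GFP reporter, which every embryo used carried: 2 from control littermates and 2 from Hoxa5-deficient ones. The labels call the genotypes Control, or Wt in the titles, and Mut, and the sources used here do not name the Hoxa5 allele, any driver of its deletion or the number of embryos behind a library. The pools hold all cervical ChAT::GFP-positive cells, so motor columns that Hoxa5 bears on differently are mixed in each library.

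Dlg and Magi proteins are membrane-associated guanylate kinases, scaffolds that carry several PDZ domains and an inactive guanylate kinase-like domain. At synapses their PDZ domains bind the tails of receptors, ion channels and adhesion proteins and hold them beside signalling enzymes. In Dlg proteins the guanylate kinase-like domain lies at the C-terminal end, after an SH3 domain, and in Magi proteins it lies near the N-terminal end, followed by WW domains. Dlg4 and Dlg2 encode the postsynaptic scaffolds PSD95 and PSD93, Dlg3 encodes SAP102 and Dlg1 encodes SAP97, which is also found in epithelia. Magi2 encodes S-SCAM, a synaptic scaffold that binds neuroligins, and Magi1 and Magi3 encode scaffolds known from cell junctions.

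The start sites of Dlg2 and Magi2 are shown first because regions at several of them differed between the genotypes. Each line gives the 250 bases before an annotated start from RefSeq (build GRCm38.p6; mm10 uses the same positions), 5′ to 3′ on the gene's strand, which is the plus strand for both genes. Capitals mark TAAT on either strand (written TAAT or ATTA), the core that many homeodomain proteins bind.
Dlg2 start at 91090786, chr7:91090536-91090785: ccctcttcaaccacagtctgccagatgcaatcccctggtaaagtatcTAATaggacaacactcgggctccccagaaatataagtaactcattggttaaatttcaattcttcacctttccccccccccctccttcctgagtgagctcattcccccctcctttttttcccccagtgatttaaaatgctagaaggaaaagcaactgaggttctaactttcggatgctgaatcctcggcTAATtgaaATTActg
Dlg2 start at 92062394, chr7:92062144-92062393: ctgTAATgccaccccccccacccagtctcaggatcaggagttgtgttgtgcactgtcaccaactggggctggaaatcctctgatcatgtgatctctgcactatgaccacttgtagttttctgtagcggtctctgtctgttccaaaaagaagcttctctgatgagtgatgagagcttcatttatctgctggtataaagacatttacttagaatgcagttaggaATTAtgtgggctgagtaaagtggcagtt
Dlg2 start at 92234970, chr7:92234720-92234969: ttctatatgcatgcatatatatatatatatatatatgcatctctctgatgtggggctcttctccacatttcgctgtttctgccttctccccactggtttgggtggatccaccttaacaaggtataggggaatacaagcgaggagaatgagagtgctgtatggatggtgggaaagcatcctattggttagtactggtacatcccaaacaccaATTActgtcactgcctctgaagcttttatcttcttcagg
Magi2 start at 19227046, chr5:19226796-19227045: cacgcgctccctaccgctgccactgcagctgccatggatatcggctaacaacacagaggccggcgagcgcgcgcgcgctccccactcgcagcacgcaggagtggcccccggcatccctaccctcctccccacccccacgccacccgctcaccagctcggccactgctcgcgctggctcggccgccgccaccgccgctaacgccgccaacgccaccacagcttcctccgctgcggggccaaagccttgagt
Magi2 start at 19907518, chr5:19907268-19907517: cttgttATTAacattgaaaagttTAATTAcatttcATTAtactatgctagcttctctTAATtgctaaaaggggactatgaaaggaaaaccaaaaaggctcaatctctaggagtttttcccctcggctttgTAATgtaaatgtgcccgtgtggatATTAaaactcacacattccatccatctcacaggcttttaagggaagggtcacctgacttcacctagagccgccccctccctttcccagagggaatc

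The 250 bases before a start were read for all 17 start sites that the RefSeq table lists for the members. In Dlg2, Dlg3, Magi1 and Magi2 no listed start lies at the 5′ end of the body. TAAT was present in 12 of the 17 windows and in 49.4% of 21263 windows of protein-coding genes. The Magi2 start at 19907518 had 7 copies, the Dlg2 starts 3, 2 and 1, and the Magi2 start at 19227046 none. A form bound by Hox and Pbx proteins together, TGATTNAT on either strand, was in none of the 17 and in 2.52% of all windows, and the Sp factor motif GGGCGG on either strand was in 7 of the 17 and in 42.6%. The G and C content of the Magi2 window at 19227046 was 72.0%, against 41.2% at 19907518 and 45.2%, 45.6% and 42.8% at the 3 Dlg2 starts. Over all windows the median was 61.6% where a region was called in all 4 libraries and 46.0% where none was called.

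Depth differed between the libraries. The lowest local background that the peak lists imply, a value that moves with read depth, stood at 5.43 and 4.39 tags in the controls and 5.14 and 6.06 in the Hoxa5-deficient libraries, and the libraries had 109746, 106783, 122736 and 133896 regions. Both regions assigned to Hoxa5 were called in every library; the labels do not say which part of the gene was removed, so this checks no genotype. All 8 motor neuron marker genes (such as Isl1 and Mnx1) had regions (54 and 52 in controls, 62 and 72 in Hoxa5-deficient libraries), and 6 had a start site open in all 4 libraries. Such a start site was also found at 4 of 5 progenitor markers (81 and 73 regions against 65 and 71), 3 of 8 interneuron markers (144 and 122 against 109 and 125), 2 of 5 glial (119 and 111 against 111 and 107), 1 of 3 sensory neuron (24 and 24 against 23 and 33) and 1 of 3 endothelial markers (28 and 24 against 26 and 37). It was found at none of 3 muscle (8 and 10 against 9 and 8) or 4 microglia and blood markers (10 and 8 against 10 and 6), and Gata1 of the blood list had no region. Of the regions called in all 4 libraries, 46 of 74 at interneuron markers and 19 of 37 at progenitor markers ranked lower in both Hoxa5-deficient libraries, or 62.2% and 51.4%, against 32.8% of all such regions. The same held for 11 of 36 at motor neuron markers, 24 of 65 glial, 4 of 16 sensory neuron, 5 of 13 endothelial, 1 of 6 muscle and 1 of 3 microglia and blood. The part of such cells in the members' values was not tested, and more open chromatin per cell cannot be told apart from more cells that have a region open. The genes were chosen by the same peak calls and ranks in the 4 libraries that are compared here, and 2 libraries against 2 cannot give an exact two-sided permutation p under 0.333, so presence and rank are described without a test.

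More regions were called at the scaffold genes in both Hoxa5-deficient libraries than in either control library. The 7 genes together had 177 and 207 regions in the controls and 286 and 308 in the Hoxa5-deficient libraries. The mean was 1.55 times as high in the Hoxa5-deficient libraries, against 1.19 times over all regions. Inside bodies over 200 kb, members included, it was 1.30 times as high. Hoxa5-deficient library 1, with 0.946 of the background tags of control library 1, had 1.62 times its member regions and 1.12 times its regions in all. For Hoxa5-deficient library 2 these values were 1.12, 1.74 and 1.22, and for control library 2 they were 0.807, 1.17 and 0.973. The part of depth in these counts was not tested.

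Dlg2 had 52 and 69 regions in the controls and 106 and 112 in the Hoxa5-deficient libraries, the widest gap of the 7 genes. Magi2 had 52 and 55 against 85 and 88, and Magi1 had 47 and 50 against 57 and 66. Magi3 had 11 and 15 against 16 and 20, and Dlg1 had 6 and 8 against 12 and 10. In these 5 genes the genotypes did not overlap. Among all genes with 5 or more regions, 29.2% had more in both Hoxa5-deficient libraries and 8.41% had fewer; among genes with 20 or more, as Dlg2, Magi1, Magi2 and Magi3 have, 47.2% had more. The genotypes overlapped at Dlg3, with 5 and 7 against 6 and 8 regions, and at Dlg4, with 4 and 3 against 4 and 4.

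**Figure D1:**
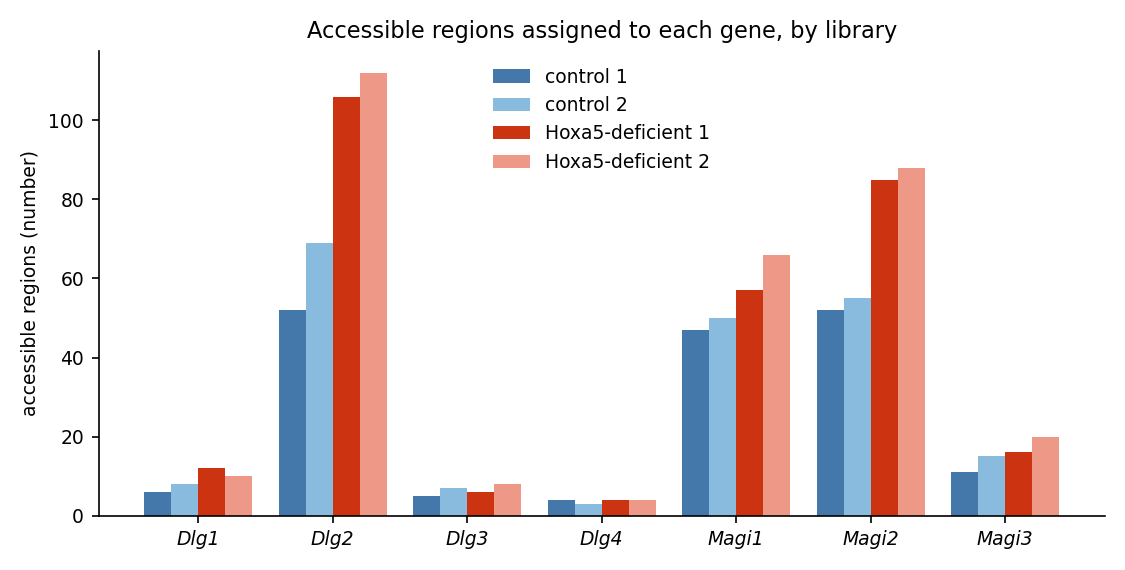
Number of accessible regions assigned to each of the 7 genes (y axis) in each of the 4 libraries (bars). At Dlg2 the controls reach 52 and 69 regions and the Hoxa5-deficient libraries 106 and 112, while at Dlg3 and Dlg4 the bars of the genotypes overlap.

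The bodies differ widely in length. Dlg2 spans 1973 kb (chr7:90476188-92449246, plus strand), Magi2 1485 kb (chr5:19219387-20704792, plus strand) and Magi1 608 kb (chr6:93675453-94283929, minus strand). Dlg1 spans 210 kb (chr16:31663443-31873356, plus strand) and Magi3 207 kb (chr3:104013259-104220406, minus strand), and the short genes are Dlg3 with 51.0 kb (chrX:100767411-100818410, plus strand) and Dlg4 with 28.3 kb (chr11:70017203-70045535, plus strand). Of the 431 regions 391 lay inside a body. Per 100 kb of body there were 17.6 regions in Dlg4, 16.4 in Magi1, 15.7 in Dlg3, 8.01 in Magi2, 7.15 in Dlg2, 4.76 in Dlg1 and 3.86 in Magi3. The 990 protein-coding genes over 200 kb had a median of 9.98 per 100 kb (quartiles 5.88 and 14.6), so Dlg2 and Magi2 lay below the median, Dlg1 and Magi3 below the lower quartile and Magi1 above the upper one. Only Magi3 had most of its regions outside the body (18 of 26). The outermost member region lay 99.8 kb from Magi1 and was called in all 4 libraries, and the nearest one beyond the limit lay 101 kb from Magi3 and was called in both Hoxa5-deficient libraries only.

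Of the 431 regions, 81 (18.8%) were called in both Hoxa5-deficient libraries and in neither control (mutant-only), where all regions of the genome gave 10.3%. The reverse, a call in both controls and neither Hoxa5-deficient library (control-only), held for 11 (2.55%), against 3.42% of all regions. Mutant-only regions were thus 7.36 times as many as control-only ones at the members, 3.02 times in the genome and 3.72 times inside the other bodies over 200 kb, where 12.8% of regions were mutant-only. Regions over 100 kb from any body, where no gene was assigned, gave 16.2% and 3.01%, nearer to the members than the genome as a whole. Another 115 member regions were called in all 4 libraries, 45 in 3, 20 in exactly 1 library of each genotype and 159 in a single library.

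The shares were uneven among the genes. The 4 Dlg genes had 36 mutant-only and 4 control-only regions of 173, and the 3 Magi genes had 45 and 7 of 258. Magi2 had 28 mutant-only and 1 control-only region of 123, and Dlg2 had 32 and 4 of 144, which is 22.8% and 22.2% mutant-only. Dlg1 had 3 and 0 of 13, and Magi3 had 5 and 1 of 26. Magi1, with 12 mutant-only and 5 control-only regions of 109, had shares of 11.0% and 4.59%, near those of the whole genome. Of its regions 55 were called in a single library. With peaks limited to a −log10 q-value of at least 5 the order of the genes changed: Magi1 had 10 mutant-only regions of 44 (22.7%), near the 19 of 74 (25.7%) of Dlg2, and Magi3 had 1 of 15 (6.67%), where all regions gave 13.8%. Magi2 had 20 of 66 (30.3%). Dlg3 had 1 mutant-only region of 11, and Dlg4 had none of 5.

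**Figure D2:**
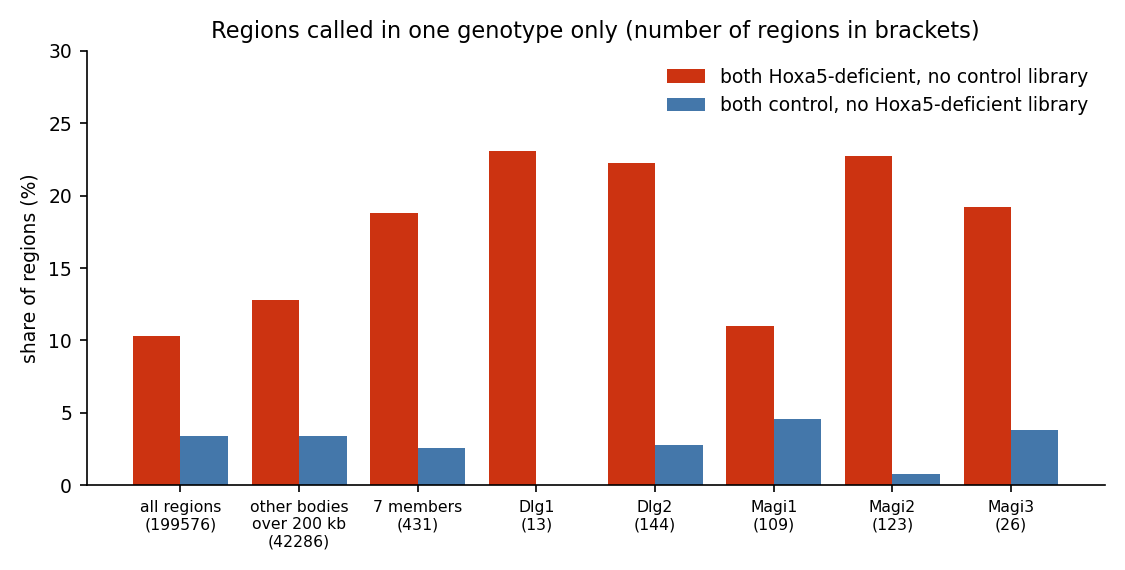
Share of regions (y axis, percent) called in both Hoxa5-deficient libraries only (red) or both control libraries only (blue), for all regions, for the other gene bodies over 200 kb, for the 7 members and for 5 of them; brackets give the number of regions. Dlg2 (22.2%) and Magi2 (22.8%) stand above all regions (10.3%), and Magi1 (11.0%) is near that share.

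The mutant-only regions were weak peaks. In the library where it was weaker, such a member region stood at a median percentile of 29.96 within that library's own list, from 1.504 to 80.4, where all mutant-only regions had a median of 25.9. Their summits held from 11 to 89 tags, with a median of 22. Control-only member regions were weaker still, at a median percentile of 17.5 with 11 to 46 tags. Member regions called in all 4 libraries had a median percentile of 44.4, below the 59.5 of all such regions. Inside bodies over 200 kb, members included, the median was 47.6 for regions called in all 4 libraries. It was 28.6 there for mutant-only and 23.3 for control-only regions. Median width was 452 bp for mutant-only, 262 bp for control-only and 756 bp for shared member regions.

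The regions called in all 4 libraries were compared by rank, as the percentile of a region's strongest peak by p-value among the 65789 regions called in all 4, so that each library ranks the same regions. Of the 115 shared member regions, 49 (42.6%) ranked higher in both Hoxa5-deficient libraries than in both controls, against 29.1% of all shared regions, and 27 (23.5%) ranked lower in both, against 32.8%. Other bodies over 200 kb gave 36.9% and 26.7%, and regions over 100 kb from any body 39.8% and 26.3%. The median shift in rank, Hoxa5-deficient minus control, was 3.06 percentile points over the members, -0.53 over all shared regions and 1.55 in the other long bodies. Magi2 had the most regions in the higher class, 18 of 32, against 6 lower. Dlg2 had 16 of 42 higher and 10 lower, Magi3 4 of 8 and 2, and Dlg1 2 of 5 and 0. Magi1 was even, with 7 higher and 7 lower of 23.

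**Figure D3:**
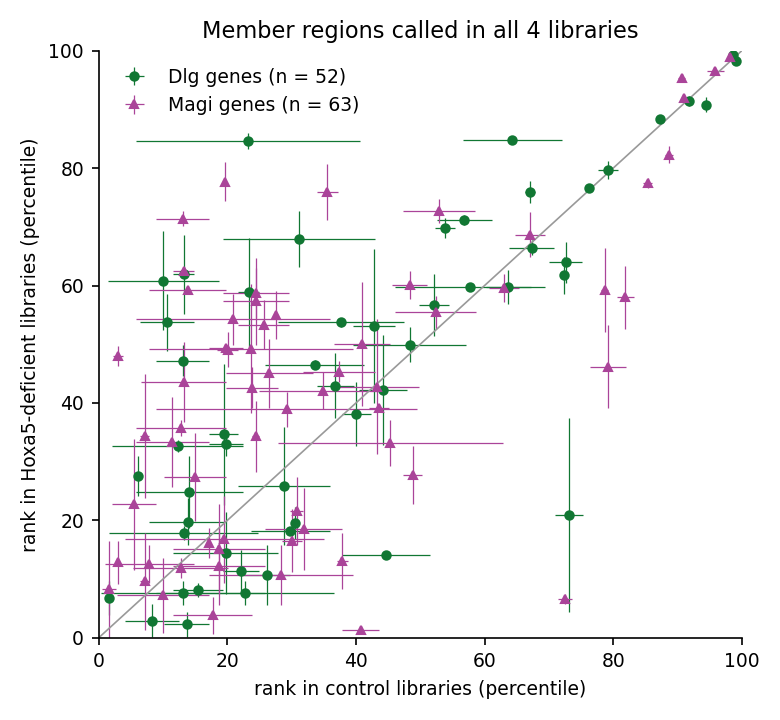
Rank of the 115 member regions called in all 4 libraries, as percentile among all such regions, in controls (x axis) and Hoxa5-deficient libraries (y axis); points are the mean of 2 libraries and bars span both, and the line marks equal rank. The Dlg2 region that went from ranks of 5.74 and 40.6 to 83.2 and 86.0 lies at the upper left, and the Magi1 region that went from 73.6 and 71.4 to 7.41 and 5.69 lies at the lower right.

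To give sizes, the number of tags piled up at a summit was recovered from each peak's fold enrichment and p-value, and divided by the library's median over the shared regions (47.0 and 39.0 tags in controls, 48.0 and 66.0 in Hoxa5-deficient libraries); this is called scaled tags. Each library's value is taken at its own strongest summit in the region. Over the members the ratio of mean scaled tags, Hoxa5-deficient to control, had a median of 1.10 and ran from 0.185 to 6.53, and over all shared regions its median was 0.985. Ratios over 2 with rank higher in both Hoxa5-deficient libraries were found at 17 of the 115 (14.8%; all shared regions 7.64%; other long bodies 11.7%): 7 in Dlg2, 6 in Magi2, 3 in Magi1 and 1 in Dlg1. Ratios under 0.5 with rank lower in both were found at 5 (4.35%, all shared regions 5.88%, other long bodies 6.25%): 3 in Magi1 and 1 each in Dlg2 and Magi2.

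Open start sites inside the bodies of Dlg2, Magi1 and Magi2 differed in rank between the genotypes, those of Magi1 in the opposite direction to the others. Of the 17 listed start windows (250 bases before to 50 after the start), 10 overlapped a region called in all 4 libraries, 1 a mutant-only region, 1 a region of 3 libraries, 1 a region of control library 1 alone and 4 none. Of the 10, 5 ranked higher in both Hoxa5-deficient libraries, against 25.5% of all such windows, and 2 lower, against 28.6%. The 2 lower ones share a single Magi1 region, and 2 Dlg1 windows, at which the genotypes overlapped, also share a single region. The 5′ end of the Dlg2 body (chr7:90475685-90476776) was among the strongest regions, with 550 and 443 tags in controls and 529 and 746 in Hoxa5-deficient libraries. Scaled, these were 11.7 and 11.4 against 11.0 and 11.3, a ratio of 0.968. Its rank was lower in both Hoxa5-deficient libraries by only 0.54 percentile points between the nearest libraries.

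The Dlg2 start at 92234970, 1759 kb into the body, differed more. Its region (chr7:92234691-92236113) had 51 and 67 tags in controls and 167 and 243 in Hoxa5-deficient libraries, or scaled 1.09 and 1.72 against 3.48 and 3.68, a ratio of 2.55. The genotypes did not overlap. The start at 91090786, 615 kb into the body, had a weak region (chr7:91090772-91091679) with 21 and 20 tags against 29 and 41, a scaled ratio of 1.28, and the start at 92062394 had no peak in any library. Of the 3 listed Dlg2 starts the one at 92234970 was the most open, though well below the 5′ end of the body. Its window has the fewest TAAT copies and the lowest G and C content of the 3 printed.

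Both listed Magi2 starts ranked higher in the Hoxa5-deficient libraries. At 19227046 (region chr5:19226206-19227745) there were 268 and 245 tags in controls and 400 and 638 in Hoxa5-deficient libraries, or scaled 5.70 and 6.28 against 8.33 and 9.67, a ratio of 1.502. At 19907518, the TAAT-rich window 688 kb into the body, there were 50 and 45 tags against 79 and 94, or scaled 1.06 and 1.15 against 1.65 and 1.42. The region over the paired Magi1 starts at 93912963 and 93913690 (chr6:93912097-93913874) was lower instead: 196 and 180 tags in controls and 135 and 181 in Hoxa5-deficient libraries, scaled 4.17 and 4.62 against 2.81 and 2.74, a ratio of 0.632. The 5′ end of the Magi1 body, 371 kb upstream of the start at 93912963, did not differ in the same way, with scaled tags of 9.74 and 8.21 against 9.73 and 9.24.

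The start of Dlg1, at the 5′ end of its body (chr16:31663441-31664598), had scaled tags of 6.38 and 6.03 in controls and 5.58 and 6.52 in Hoxa5-deficient libraries, and the genotypes overlapped. The Dlg1 start at 31754350, 90.9 kb into the body, had a region in the Hoxa5-deficient libraries only, with 21 and 35 tags. Magi3, at its 5′ end (chr3:104219526-104220972), had 526 and 498 tags against 664 and 981, scaled 11.2 and 12.8 against 13.8 and 14.9, a ratio of 1.198. Its rank was higher in both Hoxa5-deficient libraries by only 0.38 percentile points between the nearest libraries. The Dlg3 start at 100777271 overlapped between genotypes at a scaled ratio of 1.05, and the 5′ end of its body had a ratio of 1.19. Dlg4 had no peak at 2 of its 3 listed starts and a region in 3 libraries at the start at 70018605 (58, 93 and 99 tags in control library 2 and the Hoxa5-deficient libraries). Its strongest region lay within the gene (chr11:70028862-70030103), with 592 and 540 tags against 796 and 1091 and a scaled ratio of 1.25.

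**Figure D4:**
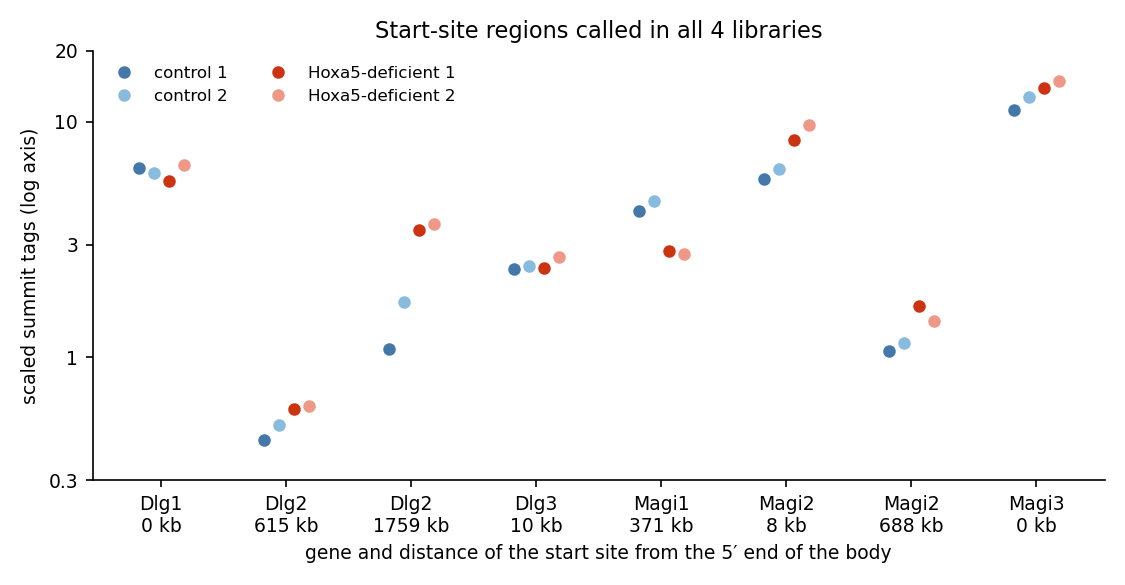
Scaled summit tags (y axis, log scale; tags at the summit over the library's median at shared regions) at the 8 start-site regions called in all 4 libraries, with 1 point per library and the distance of the start from the 5′ end of the body below each gene name. The genotypes lie apart at the Dlg2 start 1759 kb into the body (1.09 and 1.72 against 3.48 and 3.68), at both Magi2 starts and, in the other direction, at Magi1, and they overlap at Dlg1 and Dlg3.

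Inside Dlg2 the largest difference lay 1808 kb from the 5′ end, beyond the start at 92234970. That region (chr7:92283382-92284353) had 16 and 29 tags in controls and 147 and 265 in Hoxa5-deficient libraries, scaled 0.340 and 0.744 against 3.06 and 4.02, a ratio of 6.53. Its rank went from 5.74 and 40.6 to 83.2 and 86.0. Another (chr7:92177600-92178369), 1702 kb from the 5′ end, had 15 and 19 tags against 49 and 108. Mutant-only regions were spread over the Dlg2 body, with 4 of 19, 10 of 46, 5 of 34 and 12 of 42 regions in 4 equal stretches from the 5′ end. In the last 200 kb of the body, 8 of 23 regions were mutant-only and none control-only. The same stretch gave 6 of 30 and none in Magi2, and 4 of 40 and 1 in Magi1. Of all regions 10.3% were mutant-only and 3.42% control-only, and inside other bodies over 200 kb 12.8% and 3.44%. A count of none control-only among so few regions is close to these shares. The strongest mutant-only region of Dlg2 lay in its last 200 kb (chr7:92357974-92358609), with 41 and 89 tags. In the other direction, a region 1387 kb from the 5′ end (chr7:91863157-91863708) had 82 and 59 tags in controls and 33 and 18 in Hoxa5-deficient libraries, a scaled ratio of 0.295. The strongest control-only region of Dlg2 (chr7:90982148-90982397) was weak, with 21 and 16 tags.

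Magi2 had its largest difference 1280 kb from the 5′ end (chr5:20498714-20499642), with 22 and 19 tags in controls and 91 and 178 in Hoxa5-deficient libraries, scaled 0.468 and 0.487 against 1.896 and 2.70. The ratio was 4.81, and the rank went from 19.4 and 19.8 to 74.4 and 81.0. A region at 480 kb (chr5:19698670-19699700) had 21 and 15 tags against 74 and 112, and one at 1457 kb (chr5:20676036-20677006) had 33 and 25 against 85 and 185. Mutant-only regions numbered 3 of 13, 5 of 20, 10 of 42 and 10 of 44 in 4 equal stretches of the body, and no control-only region lay inside it; the 1 control-only region (chr5:19158179-19158501, 18 and 13 tags) lay 61.0 kb outside. The strongest mutant-only region (chr5:20285225-20285993) had 58 and 86 tags. Among the lower regions, the widest gap in rank lay at 1009 kb (chr5:20227865-20228726), with 33 and 27 tags against 22 and 21 and a scaled ratio of 0.557. The lowest ratio, 0.413, was that of a stronger region at 978 kb (chr5:20196669-20197713), with 113 and 111 tags against 59 and 62.

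Magi1 held regions that differed strongly in both directions. A region 491 kb from the 5′ end (chr6:93792723-93793223) had 81 and 68 tags in controls and 17 and 19 in Hoxa5-deficient libraries, scaled 1.72 and 1.74 against 0.354 and 0.288. Its ratio of 0.185 was the lowest among the members, and its rank went from 73.6 and 71.4 to 7.41 and 5.69. A neighbour at 464 kb (chr6:93819880-93820473) had 126 and 85 tags against 49 and 45, and one at 230 kb (chr6:94054014-94054271) had 36 and 27 against 13 and 15. At 409 kb (chr6:93874632-93875613) the order was opposite, with 15 and 12 tags against 44 and 64. The widest gap in the higher direction (chr6:93580010-93581088, 20 and 16 tags against 67 and 106) lay 94.9 kb beyond the 3′ end of the body, near the limit of the assignment. Its strongest control-only region (chr6:93849081-93849786) had 46 and 14 tags, and its strongest mutant-only region (chr6:93836609-93836934) had 26 and 28.

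**Figure D5:**
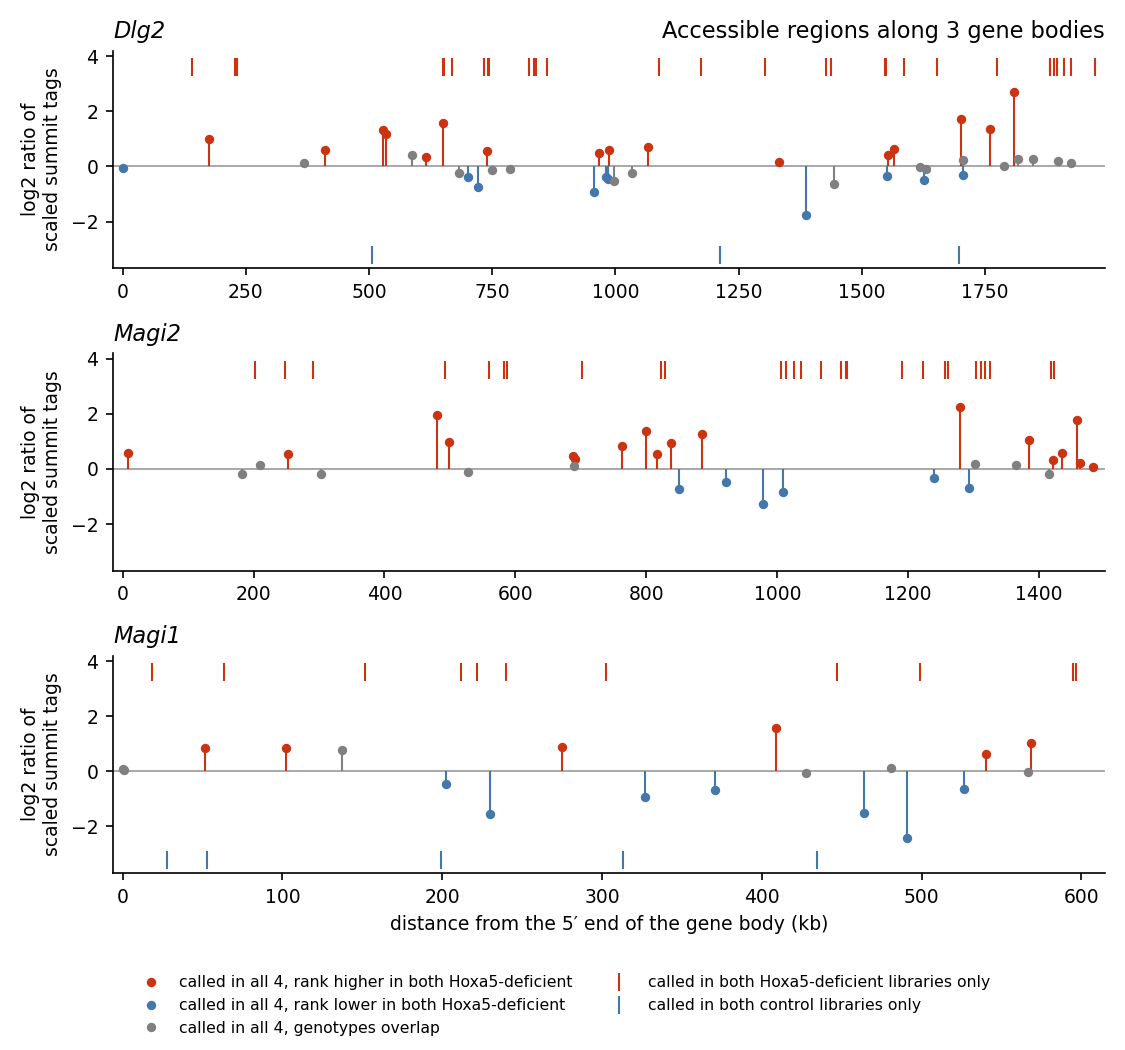
Regions along the bodies of Dlg2, Magi2 and Magi1 by distance from the 5′ end (x axis, kb); stems give the log2 ratio of mean scaled summit tags, Hoxa5-deficient to control, for regions called in all 4 libraries (y axis), and ticks mark regions called in both libraries of 1 genotype only. Dlg2 and Magi2 carry ticks of Hoxa5-deficient libraries along the whole body and Magi1 has stems in both directions, the lowest at 491 kb.

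The shorter genes had few such regions. At Dlg1 the widest gap lay 10.9 kb upstream of the body (chr16:31652082-31653071), with 22 and 30 tags in controls and 67 and 134 in Hoxa5-deficient libraries, a scaled ratio of 2.77. Its strongest mutant-only region (chr16:31868246-31869284) had 35 and 32 tags. At Magi3 the widest gap in the higher direction lay 40.1 kb upstream (chr3:104260188-104260811), with 16 and 19 tags against 31 and 43, a ratio of 1.57. In the lower direction it was about as wide in rank and lay inside the gene (chr3:104059015-104059672), with 39 and 35 tags against 30 and 31, a ratio of 0.634. Its regions found in 1 genotype were weak: the strongest had 20 and 16 tags in controls (chr3:104105031-104105229) and 22 and 46 in Hoxa5-deficient libraries (chr3:104253060-104253340). At Dlg3 a region 2.90 kb beyond the body (chrX:100821032-100821596) had 27 and 20 tags against 16 and 26, a ratio of 0.669, and the mutant-only region (chrX:100777907-100778358) had 37 and 48. At Dlg4 the lower region (chr11:70020762-70022101) had 449 and 379 tags against 360 and 579, a ratio of 0.844.

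By region counts over the 4 libraries, relative to a gene's own mean, the genes nearest to the 7 members summed were Sdk1 (50 and 59 regions in controls, 79 and 89 in Hoxa5-deficient libraries), Nr5a2 (15 and 17, 24 and 25), Xylt1 (24 and 27, 38 and 40), Cntnap5b (10 and 12, 16 and 18) and Cdh11 (10 and 12, 16 and 17). They were taken from 2101 genes with 20 or more regions, at Euclidean distances of 0.0473 to 0.0524 in log2 units over 4 libraries. The members themselves lay further off, at 0.126 for Magi2, 0.268 for Magi3, 0.272 for Dlg2 and 0.321 for Magi1.

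Other scaffold genes did not all share the members' counts. Other membrane-associated guanylate kinase genes, 12 in number, had 19 mutant-only and 10 control-only regions of 156 (12.2% and 6.41%); among them Tjp1, a tight junction scaffold, had 5 and 5, and Mpp7 had 3 and 1. Other postsynaptic scaffolds, 15 genes such as the Shank, Homer and Dlgap families, had 56 and 17 of 535 (10.5% and 3.18%), with Grip1, a scaffold for AMPA receptors, at 16 and 4, Dlgap2 at 15 and 4 and Shank2 at 5 and 1. Presynaptic active zone scaffolds, 15 genes, had 54 and 12 of 398 (13.6% and 3.02%), with Erc2 at 11 and 4, Apba2 at 7 and 1 and Rims1 at 16 and 0. The 16 mutant-only regions of Rims1 were 31.4% of its 51, above the 22.8% of Magi2 and 22.2% of Dlg2. At Erc2 and Apba2 the mutant-only shares were 13.9% and 10.4%. The share of shared regions that ranked higher in both Hoxa5-deficient libraries was 24.0%, 33.6% and 35.5% in these lists, against 42.6% at the members. These differences between lists were not tested.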

How the data were processed

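ATAC-seq peaks of 2 control and 2 Hoxa5-deficient libraries of cervical motor neurons were used. Per the submitters' processing notes the build was mm10 and the tools were MACS2 2.2.4, Bowtie2 2.3.4.3, SAMtools 1.9 and FastQC 0.11.9; their settings and any Tn5 shift of reads were not stated. Each list the authors deposited has 10 columns, among them a score that was not used, a fold enrichment ratio at the peak summit, a −log10 p-value and a −log10 q-value. The deposited lists end just above a −log10 p of 2. Fold and p-values are the authors' and were used to rank, filter or describe peaks within a list and to recover summit tags, which were compared between libraries after scaling.

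Computed from these (Python 3.11.15, pandas 2.3.3, numpy 2.4.6, scipy 1.17.1), intervals were merged at 1 bp overlap and assigned by midpoint to 21887 protein-coding bodies of RefSeq, GRCm38.p6. A summit's tag pileup was solved from fold and p as a whole number; it met the deposited −log10 p within 0.01 for all but 3 summits. Read depth is otherwise unknown, and tags carry counting error. The functions were tested on simulated lists with known answers. The members and lists were chosen with earlier results of these data known; all 7 members are named, and regions by rule: those at ends of bodies, and per gene and direction the strongest found in 1 genotype and the shared one with the widest gap. Further regions were picked with their values in view. Scaffold lists name their 3 genes with most regions, except 1 gene that is not reported here. Labels call the libraries biological replicates. Alternatives were a −log10 q of at least 5, equal numbers of summits, windows of 250 bp on each side of summits and 100 bp overlap. Others were regions inside bodies only, assignment by summit, rank by fold or tags, and leaving out each library.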

Additional observations from a re-analysis of the deposited data

How the results depend on the processing

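The share of mutant-only regions at the members lay above that of all regions, and the share of control-only regions below it, under each of 10 alternatives. The same held for shared regions that ranked higher and lower in both Hoxa5-deficient libraries under each of 12. The alternatives re-use the peak lists by which the genes were chosen, so this describes the settings and gives no separate support. The other bodies over 200 kb were not compared under the alternatives. Fewer peaks remain with a −log10 q of at least 5. Of 220 member regions, 4 were then control-only (1.82%, all regions 4.37%) and 55 mutant-only (25%, all regions 13.8%). Of 64 shared member regions, 28 ranked higher (43.8%, all shared regions 28.6%) and 14 lower (21.9%, all shared regions 32.1%). Leaving out a library counts calls of the remaining one as a group, so counts go up by construction: mutant-only regions ranged from 94 to 143 (highest without Hoxa5-deficient library 1), control-only regions from 13 to 45 (45 and 38 without control library 1 or 2), regions ranked higher from 56 to 73, and regions ranked lower from 35 to 47 (highest without control library 2). With equal numbers of summits per library, 55 of 358 member regions (15.4%) were mutant-only, against 7.78% of all regions. Named shared regions kept their direction in 171 of 173 values. Ranked by fold enrichment, the gap closed at the 5′ end of Dlg3 and at the Dlg4 region 12.3 kb into the body. A named region not called in all 4 libraries under a setting gave no value there. At the −log10 q limit this left out, among others, the Dlg2 regions 1807.7 and 1387.2 kb from the 5′ end. It also left out the Magi1 regions at 491.0 and 703.4 kb, so their direction was not checked at that limit. For single genes 240 counts stayed within 1.5 times and 68 did not, among them the mutant-only counts of Dlg2 (19) and Magi3 (1) at the −log10 q limit. No paired analysis was possible because the results are counts from no test, and nothing says that the replicate numbers pair the libraries. Depth limits the weak calls: a region absent from a list was not called there, which does not show closed chromatin.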
